A study of Mus musculus with 2 samples.

Results

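The ubiquitin brakes of inflammatory signalling were described in macrophages through 9 genes: Tnfaip3 (A20), its binding partners Tnip1, Tnip2 and Tnip3, its complex partners Itch and Rnf11, the deubiquitinase gene Cyld, and the ubiquitin ligase genes Peli1 and Rnf31. They were matched in the tables by gene symbol, by a rule that uses no measured value, and are 9 of the 55536 mouse genes in the tables. All 9 symbols were found, each with 1 gene identifier, and together they have 64 annotated transcripts. The cells were macrophages grown from bone marrow of C57BL/6J mice. They received 100 ng/ml of lipid A, the membrane-anchoring part of bacterial lipopolysaccharide, for 120 minutes, after which polyadenylated RNA was sequenced. The labels' descriptions name lipid A, whereas the treatment and source fields name lipoprotein A. There is 1 group with 2 libraries, labelled biological replicates 1 and 2, and both cite the same donor record, so the spread between them may be technical. No unstimulated library was analysed here, so what follows are levels after stimulation, and no response could be computed.

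Toll-like receptors and tumour necrosis factor receptors signal through chains of ubiquitin, a small protein that ligases attach to adaptors and kinases and that deubiquitinases remove. The chains recruit the kinases that release NF-kB, a family of transcription factors that switches on inflammatory genes. A20 cuts and edits such chains, the ABIN proteins encoded by Tnip1, Tnip2 and Tnip3 bind both the chains and A20, and CYLD removes chains on its own. Tnfaip3 is itself a textbook NF-kB target, which makes A20 a negative feedback regulator, and its loss in myeloid cells leads to inflammation. Peli1 and Rnf31 belong to the chain-writing side and are described here because the brakes act on what such ligases write.

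The gene tables held 33319563 and 50334059 counts for replicates 1 and 2, so replicate 2 was the deeper. The smallest count among the 9 genes was 1140, for Tnip2 in replicate 1. All 6 macrophage markers checked were at 1 TPM (a level per transcript length, scaled to the same total in each library) or more in both libraries, with summed levels of 18248 and 23843 TPM. Granulocyte markers summed to 517 TPM in replicate 1 and 67.2 TPM in replicate 2, with 4 of 7 at 1 TPM or more in both and none at 0. Megakaryocyte markers summed to 918 and 236 TPM, with 1 of 3, Pf4, at 1 TPM or more in both. Nearly all of that sum was Pf4, whose mean was 576 TPM, so it does not by itself identify a cell type. None of the T cell, B cell, NK cell, mast cell, stromal and erythroid markers reached 1 TPM, each list summing to 0.79 TPM or less, and Gzma, Mcpt4 and Hbb-bs were at 0 in both. The part of the differences in granulocyte markers and Pf4 in the values below was not tested. In bulk RNA, fewer cells of a type and less RNA per cell cannot be told apart.

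In both libraries each of the 9 genes reached 10 TPM, as did 54.8% of the 10445 genes whose mean count was at least 50. They fell into 4 genes above 100 TPM, namely Tnfaip3, Tnip3, Tnip1 and Peli1, and 5 between 14 and 42 TPM, namely Rnf11, Rnf31, Tnip2, Itch and Cyld. Their median level was 39.3 TPM and that of all 10445 genes 13.7 TPM. From Tnfaip3 down to Cyld, the 2 libraries' TPM ranges overlapped for 1 pair of neighbours, Tnfaip3 and Tnip3. Most of the TPM of Tnip3 came from a transcript annotated as noncoding, so the levels are also given over protein-coding transcripts alone. On that scale the order was Tnfaip3, Tnip1, Tnip3, Peli1, Rnf11, Rnf31, Tnip2, Itch and Cyld. There the ranges of Tnip3 and Peli1 overlapped, as did those of Rnf31 and Tnip2 and those of Tnip2 and Itch.

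**Figure D1:**
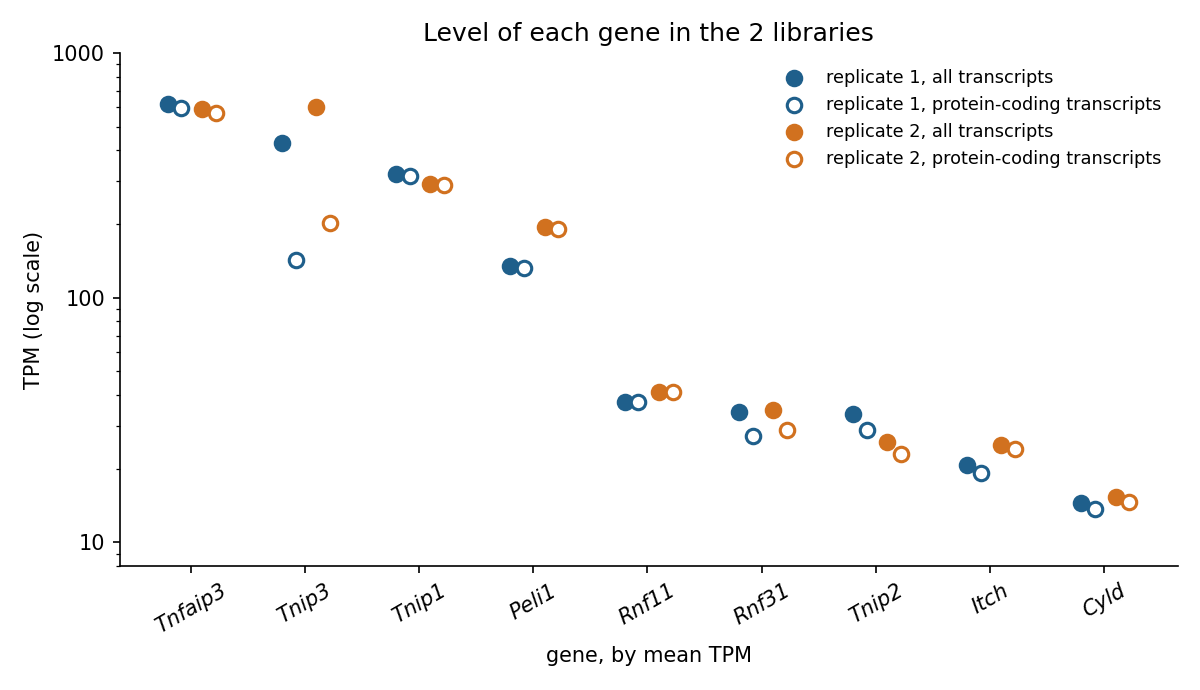
Level of each of the 9 genes in TPM on a log axis, with 1 filled point per library for all transcripts and 1 open point per library for protein-coding transcripts. The open points of Tnip3 lie at 143 and 202 TPM, far below its filled points at 427 and 604 TPM, while those of the other genes lie close to their filled points.

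Tnfaip3 encodes A20, a deubiquitinase with a row of zinc fingers that read and edit ubiquitin chains. Its level was 619 TPM in replicate 1 and 588 TPM in replicate 2, or 599 and 570.4 TPM over protein-coding transcripts. These were the highest coding levels of the 9 genes in each library. The gene ranked 216th by mean TPM among the 10285 genes at 1 TPM or more in both libraries. It lies at chr10:19000910-19015657 on the minus strand (mm10). Its 2 full-length coding transcripts carry the same 775 codons and differ in where they begin. Tnfaip3-201 starts 3447 bases upstream of Tnfaip3-202. The upstream start region, with Tnfaip3-201 and 2 minor transcripts, held 85.3% and 88.5% of the gene's TPM in replicates 1 and 2. The start of Tnfaip3-202 held 8.22% and 5.23%, and the second quantification gave 8.08% and 5.07%. The upstream start was thus the major one in both libraries and by both quantifications. Both promoter windows, from 250 bases before the start to 50 after it, are printed because the levels bear on which start was used, with matches to the NF-kB consensus in capitals (RefSeq, GRCm38.p6, minus strand, chr10:19015361-19015660 and chr10:19011914-19012213).
Tnfaip3 upstream start: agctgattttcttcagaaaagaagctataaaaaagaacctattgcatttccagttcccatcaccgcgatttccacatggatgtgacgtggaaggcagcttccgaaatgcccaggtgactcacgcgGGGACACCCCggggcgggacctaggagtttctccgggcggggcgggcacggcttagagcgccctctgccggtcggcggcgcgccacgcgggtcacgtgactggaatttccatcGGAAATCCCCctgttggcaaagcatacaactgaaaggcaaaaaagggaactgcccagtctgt
Tnfaip3 downstream start: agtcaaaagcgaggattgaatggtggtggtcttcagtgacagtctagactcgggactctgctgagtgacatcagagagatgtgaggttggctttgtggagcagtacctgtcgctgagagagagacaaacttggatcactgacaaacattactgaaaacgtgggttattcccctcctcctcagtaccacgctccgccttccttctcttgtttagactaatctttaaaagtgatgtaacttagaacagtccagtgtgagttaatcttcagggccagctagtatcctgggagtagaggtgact
The upstream window held 2 matches, beginning 125 and 12 bases before the start, and 1 match to the AP-1 motif TGANTCA read with C or G at N. The downstream window held 0 of either.

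The RefSeq promoter table has windows for 7 of the 9 genes, 8 windows in all. Itch and Rnf11 are not in it. The NF-kB consensus, searched on both strands, matched 4 of the 8 windows, those of Tnip1, Tnip3 and Cyld and the upstream one of Tnfaip3. It matched 4.51% of the 32851 windows in the table. The AP-1 motif matched 1 of the 8 windows and 5.20% of all windows. The windows of Tnip2, Peli1 and Rnf31 held neither. A match describes letters in these windows and was not measured as binding. The windows of Tnip1 (chr11:54962891-54963190, minus strand) and Tnip3 (chr6:65590148-65590447, plus strand) are printed with their matches in capitals, since these were the other brake genes above 100 TPM.
Tnip1: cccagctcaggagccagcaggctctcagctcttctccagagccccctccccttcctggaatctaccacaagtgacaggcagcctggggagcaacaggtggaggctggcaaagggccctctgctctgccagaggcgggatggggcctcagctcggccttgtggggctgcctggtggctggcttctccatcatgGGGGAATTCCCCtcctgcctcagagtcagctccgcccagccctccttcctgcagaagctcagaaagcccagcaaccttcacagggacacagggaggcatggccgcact
Tnip3: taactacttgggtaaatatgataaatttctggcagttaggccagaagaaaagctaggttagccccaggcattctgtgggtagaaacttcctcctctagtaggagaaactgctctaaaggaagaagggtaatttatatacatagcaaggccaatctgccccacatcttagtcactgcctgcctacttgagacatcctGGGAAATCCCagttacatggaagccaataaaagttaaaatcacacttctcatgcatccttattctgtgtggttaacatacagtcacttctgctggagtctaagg
In Tnip1 the capitals are a palindrome that the consensus matched in 3 overlapping registers, 58 to 56 bases before the RefSeq start. In Tnip3 there was 1 match, 54 bases before the start of Tnip3-201. The Cyld window had 1 match, 155 bases before the start, and is not printed.

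Tnip1 encodes ABIN-1, the broadly expressed ABIN that brings A20 to ubiquitin chains. Its level was 321 and 291 TPM in replicates 1 and 2, which placed it 462nd of the 10285 genes. Tnfaip3 stood at 1.93 and 2.02 times the TPM of Tnip1. That ratio differed little between the libraries, and the second quantification gave 1.88 and 1.94. The gene lies at chr11:54910785-54962917 on the minus strand. Its leading transcript was Tnip1-205, with 52.2% of the TPM in replicate 1 and 60.6% in replicate 2. Tnip1-205 and Tnip1-204 share a form of 594 codons, which lacks the first coding exon of the forms of 646 and 647 codons and so begins 53 codons later. The coding part of that exon, 136 bases at chr11:54940711-54940846, is printed with its start codon in capitals because its presence separates the forms.
Tnip1-201 exon: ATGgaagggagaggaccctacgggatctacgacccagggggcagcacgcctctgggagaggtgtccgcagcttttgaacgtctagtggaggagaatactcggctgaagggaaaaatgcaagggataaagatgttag
The shorter form held 52.6% and 61.3% of the gene's TPM. The form of 646 codons, Tnip1-202, held 24.8% and 20.9%, and the forms of 647 codons 13.4% and 8.85% together. The shorter form was therefore the most abundant in both libraries. By the second quantification it held 49.2% and 55.5%, again higher in replicate 2. A start region 6795 bases downstream of the main one held 14.6% and 11.2% of the TPM.

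Tnip2 encodes ABIN-2, which binds A20 and also stabilises the kinase TPL2. It was low beside Tnip1, at 33.6 TPM in replicate 1 and 25.7 TPM in replicate 2. Tnip1 stood at 9.56 and 11.3 times its TPM. The leading transcript, Tnip2-202, held 81.8% and 85.2% of the TPM and encodes 430 codons. By the second quantification it held 75.4% and 72.5%, so the direction between libraries differed. Tnip2-201, of 451 codons, has 1 more exon of 63 bases, which keeps the reading frame, and held 3.39% and 4.15%. That exon lies at chr5:34501458-34501520 on the minus strand and is printed in capitals because the main transcript lacks it.
Tnip2-201 exon: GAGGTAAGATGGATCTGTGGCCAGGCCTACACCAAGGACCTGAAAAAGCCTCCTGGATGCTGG
Retained-intron transcripts made up 14.3% and 10.6% of the TPM of Tnip2. In the first quantification Tnip2-205, of 383 bases, had 6.53% of the TPM from 5.87 expected counts in replicate 1. In replicate 2 it had 1.15% from 1.19 counts. The share of this short transcript thus rested on few counts.

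Tnip3 encodes ABIN-3, another A20-binding protein of the family. Its gene level was 427 TPM in replicate 1 and 604 TPM in replicate 2, with a mean of 515 ± 125 TPM (SD, n = 2). The 2 libraries were further apart than for Tnfaip3 or Tnip1. Over protein-coding transcripts the levels were 143 and 202 TPM, 33.4% and 33.5% of the gene's TPM. Against Tnip1, the TPM of Tnip3 was 1.33 and 2.07 times as high over all transcripts and 0.452 and 0.702 times over coding transcripts. Whether Tnip3 stood above or below Tnip1 thus depended on the transcripts counted, in both libraries. The gene lies at chr6:65525313-65634040 on the plus strand.

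The leading transcript of Tnip3 was Tnip3-205, annotated as a retained intron, with 64.0% and 63.6% of the gene's TPM. The second quantification gave 61.7% and 61.9%. Among 9251 protein-coding genes with more than 1 transcript whose mean count was at least 50, 5.5% had a leading transcript that is not annotated as protein coding, and among the 9 genes Tnip3 was the 1 that did. Tnip3-205 is 842 bases long, and its effective length, the length over which fragments could start, was 559 and 557 bases. It held 31.2% and 29.8% of the gene's expected counts, or 3446 and 7115 counts. Tnip3-201, of 3769 bases, held 43.1% and 47.6% of the counts and 14.2% and 16.2% of the TPM. By counts Tnip3-201 led, and by TPM Tnip3-205 did. Tnip3-205 follows Tnip3-201 through exon 5 of 8 and then runs on for 233 bases into the intron, chr6:65599942-65600174, where it ends. The 40 bases up to that point are printed in lower case and the following 60 bases of each transcript in capitals, because this junction tells them apart.
Tnip3-205: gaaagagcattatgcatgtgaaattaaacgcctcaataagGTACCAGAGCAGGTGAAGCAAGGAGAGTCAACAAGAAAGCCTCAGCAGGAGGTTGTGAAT
Tnip3-201: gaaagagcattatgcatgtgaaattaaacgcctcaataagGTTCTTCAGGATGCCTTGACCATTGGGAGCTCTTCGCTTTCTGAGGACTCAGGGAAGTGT
The capitals of Tnip3-205 are intron and those of Tnip3-201 are exon 6. Tnip3-205 contains the start codon of Tnip3-201. Read from there, the 2 transcripts share 139 codons, after which Tnip3-205 has 58 further codons before a stop inside the retained stretch. Its annotation lists no coding sequence. The intron is 5899 bases long, and the tables do not show whether reads cover the rest of it.

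**Figure D2:**
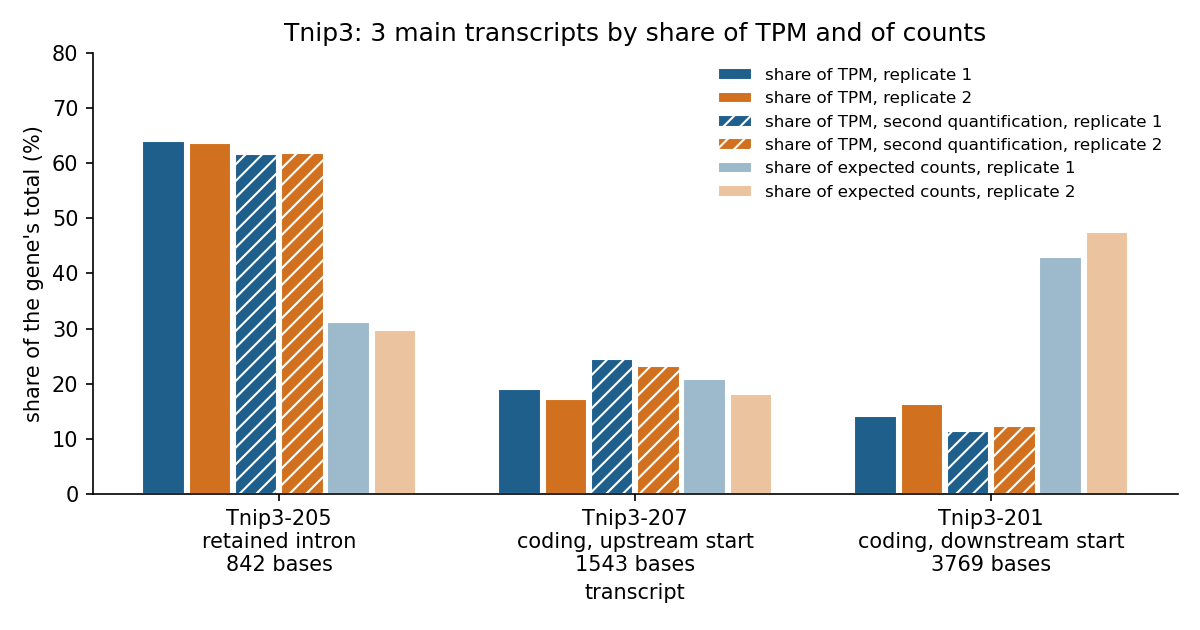
Shares of the 3 main Tnip3 transcripts in percent of the gene's total, as bars for each library: TPM by the first quantification (plain), TPM by the second (hatched) and expected counts (pale). Tnip3-205 leads by TPM in all 4 estimates, at 61.7% to 64.0%, and Tnip3-201 leads by counts, at 43.1% and 47.6%.

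The coding transcripts of Tnip3 come from start regions far apart. Tnip3-207, of 279 codons, begins 65013 bases upstream of Tnip3-201, of 208 codons. Tnip3-207 held 19.1% and 17.2% of the TPM and Tnip3-201 14.2% and 16.2%. These shares were close in replicate 2. By the second quantification Tnip3-207 held 24.4% and 23.2% and Tnip3-201 11.5% and 12.3%. The downstream start region, which Tnip3-205 shares, held 79.9% and 81.9% of the TPM.

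Itch encodes a HECT-type ubiquitin ligase and Rnf11 a small RING protein, and both are known as parts of the A20 ubiquitin-editing complex. Itch stood at 20.8 and 25.1 TPM in replicates 1 and 2 and Rnf11 at 37.4 and 41.1 TPM. Both were far below Tnfaip3, which stood at 29.8 and 23.4 times the TPM of Itch and 16.5 and 14.3 times that of Rnf11. Itch (chr2:155133509-155226855, plus strand) was made up mainly of Itch-201, with 92.2% and 89.2% of the TPM. Of its 31-base words, 4.89% also occur in transcripts of other genes, the highest such share among the 9 genes. Rnf11 (chr4:109451098-109484728, minus strand) had all of its TPM in transcripts that encode the same 154 codons. Rnf11-202 held 68.2% and 70.2% of the TPM but 48.7% and 51.1% of the counts. The other, Rnf11-201, has 1801 more bases at its 3′ end. Which of the 2 led Rnf11 by counts differed between the libraries in the first quantification, while Rnf11-202 led by TPM in both. By counts of the second quantification Rnf11-202 led in both libraries, at 1290 and 2170 against 948 and 1433.

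Cyld encodes a deubiquitinase that removes linear and lysine-linked chains and was named for its loss in familial cylindromatosis, a skin tumour syndrome. It had the lowest level of the 9 genes, 14.4 and 15.4 TPM, with 1464 and 2255 counts. Tnfaip3 stood at 42.8 and 38.2 times the TPM of Cyld. The gene lies at chr8:88697028-88751945 on the plus strand. Its form of 952 codons, led by Cyld-206, held 62.1% of the TPM in replicate 1 and 73.6% in replicate 2. Cyld-204, of 770 codons, held 24.8% and 18.0%, and 22.0% and 12.2% by the second quantification. The form of 952 codons was the major one in both libraries, and its share was higher in replicate 2 by both quantifications. Cyld-204 lacks exons of 380 and 166 bases, chr8:88729459-88729838 and chr8:88730656-88730821, together 182 codons in frame. The joint is shown as the 30 bases before the skipped exons in lower case and the next 30 bases of each transcript in capitals.
Cyld-206: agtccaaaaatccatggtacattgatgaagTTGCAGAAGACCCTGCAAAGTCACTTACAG
Cyld-204: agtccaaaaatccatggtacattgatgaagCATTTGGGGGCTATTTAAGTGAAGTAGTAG
Cyld-204 also has a start of its own, 5278 bases downstream of the main start region.

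Peli1 encodes Pellino-1, a ubiquitin ligase that acts on IRAK and RIP kinases downstream of Toll-like receptors. It stood at 134 TPM in replicate 1 and 195 TPM in replicate 2. Nearly all of it was 1 transcript, Peli1-201 (chr11:21091291-21150323, plus strand), with 97.6% and 97.3% of the TPM. Its paralog Peli2 was at 4.93 and 7.50 TPM, so Peli1 stood at 27.2 and 26.0 times that level. Over coding transcripts the ratio was 32.5 in replicate 1 and 26.3 in replicate 2. Both genes were higher in replicate 2. Peli1 shared 0.0912% of its 31-base words with other genes' transcripts.

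Rnf31 encodes HOIP, the catalytic subunit of LUBAC, the complex that writes linear ubiquitin chains, which A20 and ABIN-1 bind. Its level was 34.2 and 34.7 TPM, the smallest relative difference between the libraries among the 9 genes in gene TPM of the first quantification. By the second, Rnf31 stood at 29.1 and 26.9 TPM, and Rnf11, at 36.61 and 36.63 TPM, differed less. Over coding transcripts of the first quantification Tnfaip3 differed less than Rnf31, which stood at 27.2 and 28.7 TPM. Rbck1, the LUBAC subunit HOIL-1, was at 26.3 and 26.4 TPM and was added outside the naming rule with its values known. Rnf31 stood at 1.30 and 1.32 times its TPM. Tnfaip3 stood at 18.1 and 17.0 times the TPM of Rnf31. Rnf31-201, of 1066 codons, held 79.7% and 76.0% of the TPM. Rnf31-207, a fragment of 552 bases annotated as a target of nonsense-mediated decay, held 12.1% in both libraries, from 25.5 and 38.0 expected counts, and 4.42% and 6.91% by the second quantification. Rnf31 (chr14:55591708-55603693, plus strand) shares 123 of its 5734 exon bases with Irf9 on the same strand. Irf9, which encodes a subunit of the interferon-activated factor ISGF3, was at 57.1 and 55.6 TPM. Reads within the shared bases cannot be assigned by sequence, so the value of Rnf31-207, which lies at that end of the gene, is uncertain.

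Across the 9 genes, 1 and the same transcript led in both libraries and by both quantifications in 9 of 9, beside 81.3% of 9433 genes with more than 1 transcript. The leading share ran from 56.4% for Tnip1-205 to 97.4% for Peli1-201, as the mean of both libraries. The other leaders were Tnfaip3-201 at 85.1%, Tnip2-202 at 83.5%, Tnip3-205 at 63.8%, Cyld-206 at 58.4%, Itch-201 at 90.7%, Rnf11-202 at 69.2% and Rnf31-201 at 77.8%. Rnf11, Peli1, Itch and Tnfaip3 had more than 90% of their TPM in transcripts of 1 coding form by the first quantification, whereas Tnip1, Cyld and Tnip3 divided their coding output between forms that differ in coding exons.

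**Figure D3:**
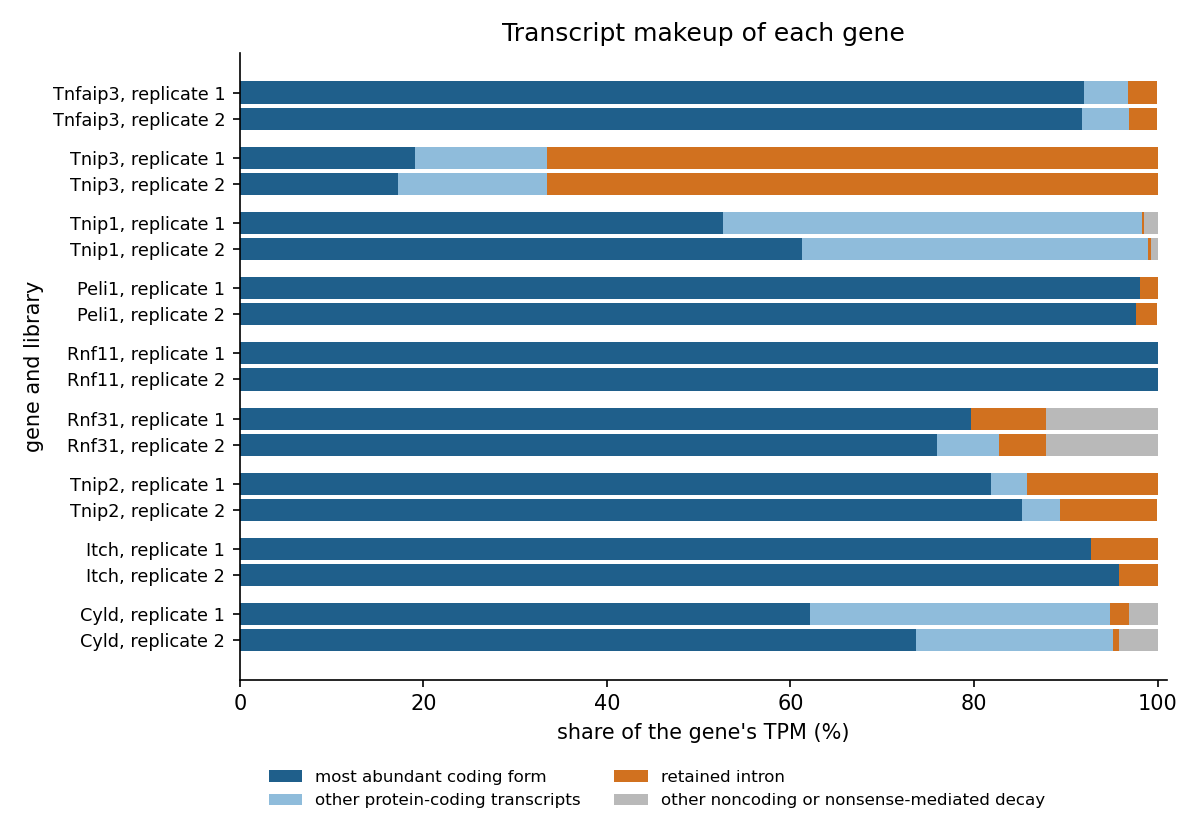
Makeup of each gene's TPM in percent, with 1 bar per library, split into the most abundant coding form (transcripts with the same coding sequence), other protein-coding transcripts, retained-intron transcripts, and other noncoding or nonsense-mediated decay transcripts. All bars show the first quantification. Retained intron fills 66.6% and 66.5% of the Tnip3 bars and 14.3% or less of the others. The light blue share is widest in Tnip1, at 45.7% and 37.6%.

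Between the libraries, 2 of the 9 genes were 1.5-fold or more apart after TMM scaling of counts, beside 14.6% of the 10445 genes. Both were higher in replicate 2, beside 7.46% of genes that were 1.5-fold or more higher, and 0 were lower, beside 7.14%. With 1 library on each side the differences could not be tested and have no replicate check. Tnip3 had 11049 and 23889 counts, a ratio of 1.61 after scaling (log2 0.68). Peli1 had 9731 and 20637 counts, a ratio of 1.58 (log2 0.66). Neither passed 1.5-fold by total counts, where the ratios were 1.43 and 1.40, or by log2 of TPM + 1, where they were 1.41 and 1.45. The median of all 10445 genes moved with the scaling, from 0.03 on the log2 scale with TMM to -0.14 with total counts. Both scalings multiply each library by 1 factor, so a gene's distance from that median is the same by construction. With the median subtracted, Tnip3 lay at 0.66 and Peli1 at 0.63, and at 0.58 and 0.62 with log2 of TPM + 1. Without that subtraction, the log2 ratios of the remaining genes with TMM were smaller than those of Tnip3 and Peli1: Itch at 0.45, Rnf11 at 0.24, Cyld at 0.19, Rnf31 at 0.19, Tnfaip3 at 0.06, Tnip1 at -0.02 and Tnip2 at -0.20. The sign for Tnfaip3 turned with total counts, to -0.11, and with log2 of TPM + 1, to -0.07. Over the 9 genes the median log2 ratio with TMM was 0.19, against 0.03 for all genes. With total counts it was 0.03, against -0.14.

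**Figure D4:**
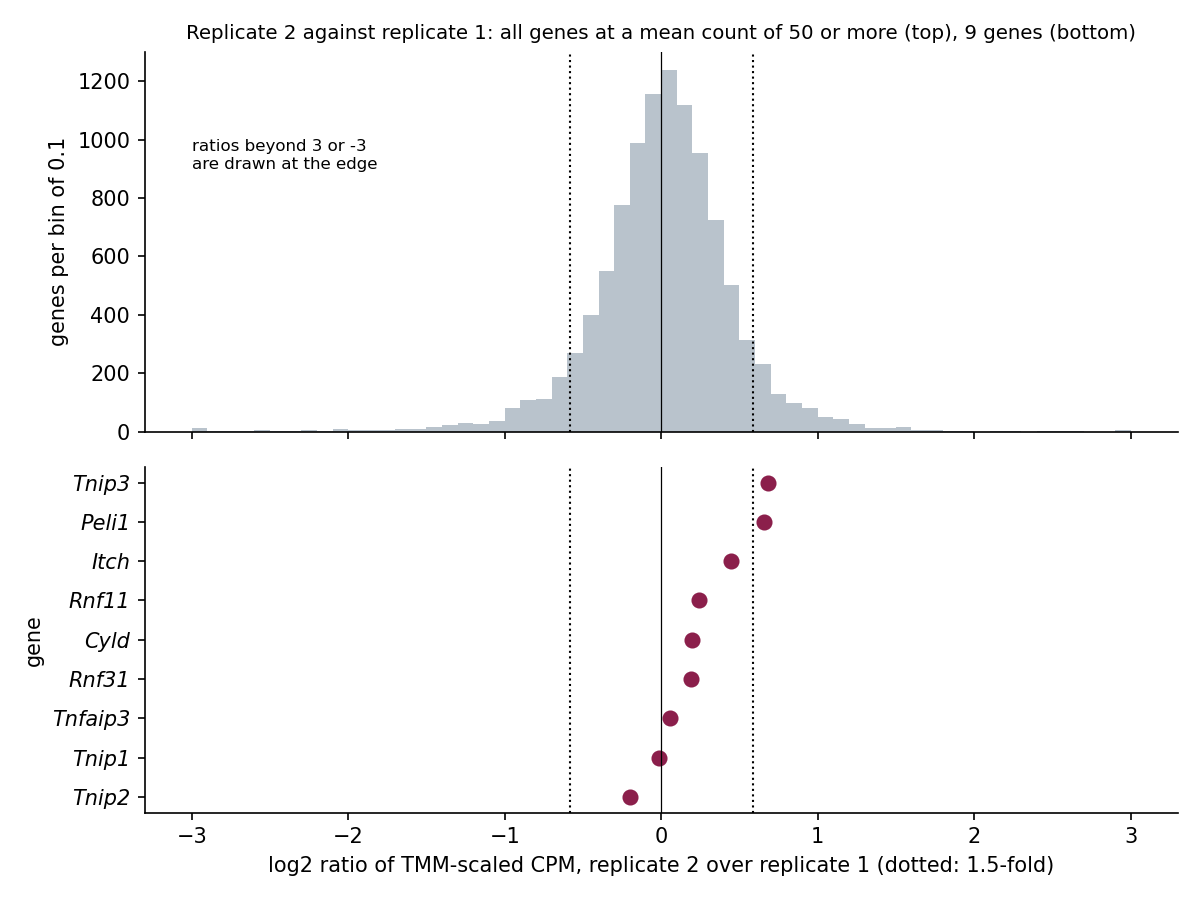
Log2 ratio of TMM-scaled counts, replicate 2 over replicate 1, for all 10445 genes whose mean count was at least 50 (histogram, genes per bin of 0.1, ratios beyond the axis drawn at its edge) and for the 9 genes (points). Tnip3 and Peli1 lie beyond the dotted line at 1.5-fold, and the other 7 points lie between the lines, where most genes lie.

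Between the 2 quantifications of the same reads, 0 of the 9 genes were 1.5-fold or more apart in mean TPM, beside 5.18% of the 10445 genes. All 9 were lower in the second, by log2 differences from -0.30 for Rnf31 to -0.03 for Tnip2. Their median was -0.18 and that of all genes -0.23, so most genes were lower there. The coding level of Tnip3 ranked 3rd among the 9 genes in both quantifications, at 139 and 187 TPM in the second. Tnfaip3 stood at 543 and 471 TPM there, and its order over Tnip1, at 288 and 243 TPM, was the same.

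Around these genes, a list of 40 others of the same ubiquitin system was measured by role, written with earlier results of these data known. Of the 40, 32 were at 10 TPM or more in both libraries, all of them among the 38 whose mean count was at least 50. So were 54.8% of the 10445 genes whose mean count was at least 50. Over all 40, without that count filter, the list's median was 27.6 TPM, beside 39.3 TPM for the 9 genes and 13.7 TPM for those 10445. Of the LUBAC partners, Sharpin was the higher in gene TPM of the first quantification, at 35.2 and 42.0 TPM, and Rbck1 was the higher over coding transcripts and by the second quantification. Among 7 genes grouped as deubiquitinases, 5 were at 10 TPM or more. That group includes Spata2 and Spata2l, which encode adaptor proteins and not enzymes. Its highest by mean TPM was Usp4 at 57.9 and 42.1 TPM. In replicate 2 Otulin, at 46.9 TPM, and Otud5, at 44.9 TPM, stood above it, and by the second quantification Otud5 had the higher mean. Tnfaip3 stood at 10.7 and 14.0 times the TPM of Usp4. All 4 adaptors were at 10 TPM or more, led by Ndfip1, which recruits and activates Itch and related ligases, at 229 and 191 TPM. Among the 13 other ligases 9 were, and the highest by mean TPM was Birc3, the inhibitor-of-apoptosis ligase cIAP2, at 87.9 and 132 TPM. Wwp1, at 100.0 and 107 TPM, was above it in replicate 1, and over coding transcripts in both libraries. All 6 conjugating enzymes were, led by Ube2d3 at 381 and 384 TPM. Of 4 genes grouped as chain readers, with Tab1 counted as a complex partner, 2 were. The higher was Tab2, which tethers the kinase TAK1 to chains, at 97.9 and 107 TPM. All 4 kinases that carry or receive chains were, led by Ripk2, the kinase below the NOD receptors, at 81.7 and 124 TPM. The 8 below 10 TPM in at least 1 library were Spata2l, Usp21, Traf5, Peli2, Peli3, Nedd4, Tab1 and Tab3.

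**Figure D5:**
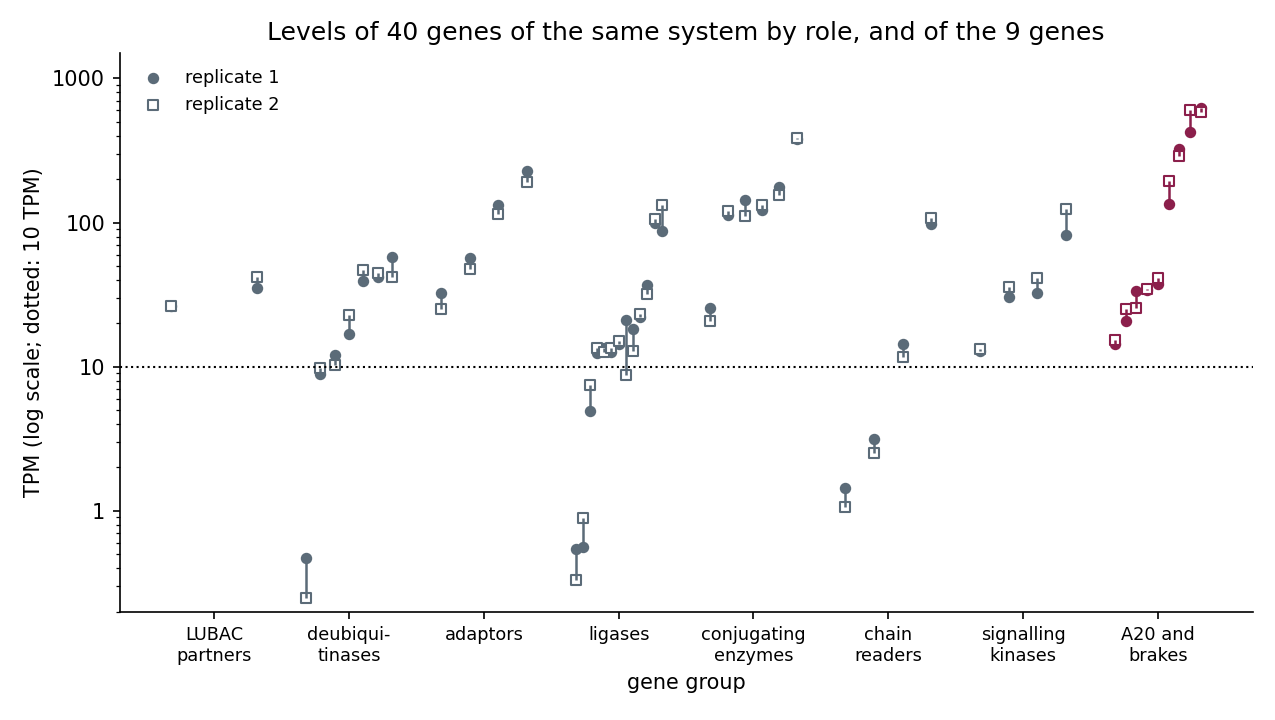
TPM on a log axis of the 40 system genes by role and of the 9 genes (last column), with a filled circle for replicate 1 and an open square for replicate 2 joined by a line, and a dotted line at 10 TPM. The 9 genes span 14.4 to 619 TPM, all above the line, while 8 of the 40 have a point below it.

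Of the 38 list genes whose mean count was at least 50, 4 were 1.5-fold or more higher in replicate 2 (Spata2, Birc3, Peli2 and Ripk2) and 1 was lower (Traf5). Over all 10445 genes with such a count, 7.46% were higher and 7.14% lower by that measure. The furthest apart upward was Peli2, at 443 and 1332 counts (log2 1.16), beside its paralog Peli1 at 0.66. The furthest downward was Traf5, at 364 and 239 counts (log2 -1.04). Between quantifications, 1 list gene, Sharpin, was 1.5-fold or more apart, beside 5.18% of the 10445 genes. Sharpin stood at 35.2 and 42.0 TPM in the first and 19.7 and 18.9 TPM in the second. Rnf31 stood below Sharpin in the first quantification, at 0.971 and 0.827 times its TPM, and above it in the second, at 1.48 and 1.42 times.

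The protein-coding genes whose TPM lay nearest to that of Tnfaip3 in both libraries were Socs3, Aldh2 and Ifi211. Likeness was the larger of the absolute log2 TPM differences in the 2 libraries, which was 0.0044 for Socs3, 0.019 for Aldh2 and 0.025 for Ifi211. Socs3, a feedback inhibitor of cytokine receptor signalling, stood at 617 and 589 TPM. Aldh2, a mitochondrial aldehyde dehydrogenase gene, stood at 611 and 596 TPM, and the interferon-inducible gene Ifi211 at 621 and 599 TPM. Over 2 libraries such likeness describes level alone.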

How the data were processed

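The deposited files of each library are a gene table, its transcript table and a transcript table from another program. The first pair holds expected counts, TPM (also as posterior means) and, for transcripts, their percent of the gene total, under RSEM's column names per the file headers. The authors' score columns there, deposited bounds and deviations of these estimates, were not used. The last table holds estimated counts and TPM under kallisto's column names, per the file headers. It is the second quantification and was summed by gene. Annotation M21 of GENCODE on mm10 was used, per the deposited descriptions. Program versions and strandedness are not given in the sources used here. Entries other than mouse genes held 0.141% and 0.134% of counts and stayed out of library sizes. Symbols matched 55450 of 55536 gene identifiers.

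Expected counts were rounded and scaled with TMM factors from edgeR 4.0.16 (R 4.3.3). Folds were counted over genes whose mean count was at least 50. The ratio script was tested on simulated data. The coefficient of variation that edgeR terms biological was 21.5% over 12178 genes. It comes from the 2 libraries alone, whose spread may be technical. Transcript starts within 500 bases were grouped, and coding forms joined transcripts with the same coding sequence (stop codon not counted). The 31-base words are those of all annotated transcripts. Alternatives were DESeq2 1.42.0 size factors, total counts, log2 of TPM with pseudocounts of 1 and 0.1, other thresholds, the second quantification, TPM without mitochondrial genes, posterior means and each library alone. Python 3.11.15, numpy 2.4.6, pandas 2.3.3 and matplotlib 3.10.9 were used.

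The rule that finds the 9 genes uses symbols alone, but the 9 symbols, the lists and the tests were chosen with earlier results of these data known. Genes named in the text are the 9 genes, the highest of each role in the list, the list's furthest in each direction, the 3 nearest to Tnfaip3, genes with overlapping exons, and members of counts of 8 or fewer, these last named with their values known. A further group of the list as first written is not reported here and is not counted in the 40 genes. Otulin, Otud5 and Wwp1 were named with their values known. Replicate numbers name samples of 1 group, so there was nothing to pair or test.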

Additional observations from a re-analysis of the deposited data

How the results depend on the processing

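The count of 9 genes at 10 TPM or more was 9 by the second quantification and by posterior means, and 8 at 20 TPM. It was also 9 without mitochondrial genes, at 5 TPM and with each library alone, but these settings could not lower it. The count of 2 genes 1.5-fold or more apart between libraries was 2 with DESeq2 size factors and with the second quantification, beside 14.6% and 14.2% of all genes. These shares are over genes whose mean count was at least 50, with counts above 0 in both libraries and quantifications. Without a count filter and at a mean count of 200 or more the count was also 2. Those filters could not change it, as the smallest mean count among the 9 genes was 1238.5. The count was 0 with total counts, beside 16.5% of all genes, and 0 with log2 of TPM + 1, beside 10.9%. It was 0 with log2 of TPM + 0.1, beside 16.1%, and 0 at a fold of 2, where no share of all genes was computed. The count of 0 genes apart between quantifications was 0 with each library alone and with estimated counts scaled to the library total. At a fold of 2 it was 0 as well, which was fixed in advance because that fold is stricter. The count of 9 with the same leading transcript was 9 with each library alone. That too was fixed in advance, since the main count already required agreement in both libraries and both quantifications. For the 40 list genes, 31 to 33 were at 10 TPM or more under alternatives chosen after seeing the data. Their 5 genes 1.5-fold or more apart became 5 with DESeq2 size factors, 3 with total counts and 2 with log2 of TPM + 1. Beside these stand the same shares of all genes, 14.6%, 16.5% and 10.9%. Of the single levels, 4 of 9 moved by more than 1 SD with the second quantification, 4 without mitochondrial genes and 1 by posterior means. Of the leading transcript shares, 7 of 9 moved by more than 1 SD with the second quantification. No paired analysis was possible because there is 1 group. With 2 libraries the spread itself is poorly known. Transcript shares are estimates, and those of some short transcripts, such as Tnip2-205 and Rnf31-207, rest on few counts.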
